A study of Mus musculus with 2 samples.

Results

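CD40, the interleukin-4 (IL-4) receptor and the transforming growth factor beta (TGF-beta) receptors take up the stimulus that is usually given to B cells in culture to make them switch antibody class. The 10 genes described here encode these receptors and the transducers next to them. They were chosen by symbol, with earlier results of these data known, and all 10 were found among the 43346 genes of the gene tables. Total RNA was sequenced from CH12.LX, an immortalized mouse B cell lymphoma line of strain B10.H-2aH-4bp/Wts, labelled female and of unknown age. It gave 2 libraries, which the labels number as biological replicates 1 and 2 and place in 1 group. The labels record no stimulus, so levels are described and the libraries are set against each other, with no contrast between conditions. Each library has a biosample of its own in the labels, which do not say whether these were separate cultures, so the spread between them may be technical.

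CD40 is a receptor of the tumour necrosis factor receptor family that binds CD40 ligand on helper T cells and signals through TRAF adaptors to NF-kB. IL-4 binds the alpha chain encoded by Il4ra, which pairs with the common gamma chain encoded by Il2rg. JAK1 and JAK3, tyrosine kinases bound to those chains, phosphorylate the transcription factor STAT6. TGF-beta binds the type II receptor (Tgfbr2), which recruits and phosphorylates the type I receptor (Tgfbr1). The type I receptor then phosphorylates SMAD2 and SMAD3, which enter the nucleus with SMAD4. CH12 lymphoma lines are widely used because CD40 ligand, IL-4 and TGF-beta together make them switch to IgA.

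Replicate 1 held 49278383 expected counts and replicate 2 held 55950529. At this depth the 10 genes had between 68 and 7672 expected counts per library, with Smad3 the lowest and Stat6 the highest. Levels are in TPM (transcripts scaled to a fixed library sum), which are per length and so can be set side by side between genes. All 9 B cell markers examined reached 1 TPM in each library, against 2 of 7 T cell, 0 of 6 myeloid, 1 of 4 dendritic cell, 0 of 5 stroma and endothelium and 0 of 4 erythroid markers. The summed TPM of the B cell markers was 267.7 and 280.7, that of the T cell markers 4.51 and 5.06 and that of the myeloid markers 0.35 and 0.34 in replicates 1 and 2, and Cd3e, Cd14 and Csf3r were listed at 0 TPM in both. The markers of other cell types that reached 1 TPM in each library were Cd3g at 2.69 and 3.04 TPM, Cd3d at 1.14 and 1.45 TPM and Zbtb46 at 1.01 and 2.31 TPM. The erythroid marker Hba-a1 reached it in replicate 2 alone, at 0.46 and 1.19 TPM. The part of other cell types in the levels below was not tested.

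Of the 10 genes, 8 reached 1 TPM in each library and 4 (Cd40, Il2rg, Stat6 and Tgfbr2) reached 10 TPM in each. Among all genes 22.1% reached 1 TPM in each library, and among protein-coding genes 41.4% did. The share of all genes at 10 TPM was not computed. Tgfbr1 lay at the threshold of 1 TPM and Smad3 under it. The median of the 10 mean levels was 8.50 TPM, against 0.195 TPM over all protein-coding genes, which include those not detected. Among protein-coding genes at 1 TPM in each library, the 8 genes ranged from percentile 27.2 for Il4ra to 89.5 for Cd40. Jak1 lay at percentile 49.9 and Smad2 at 37.5. From the highest mean TPM to the lowest the order was Cd40, Il2rg, Stat6, Tgfbr2, Jak3, Jak1, Smad2, Il4ra, Tgfbr1 and Smad3. The ranges of Il2rg and Stat6 over the libraries overlapped, as did those of Tgfbr2 and Jak3, and all other neighbours in this order were apart. These ranges rest on 2 values each.

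**Figure D1:**
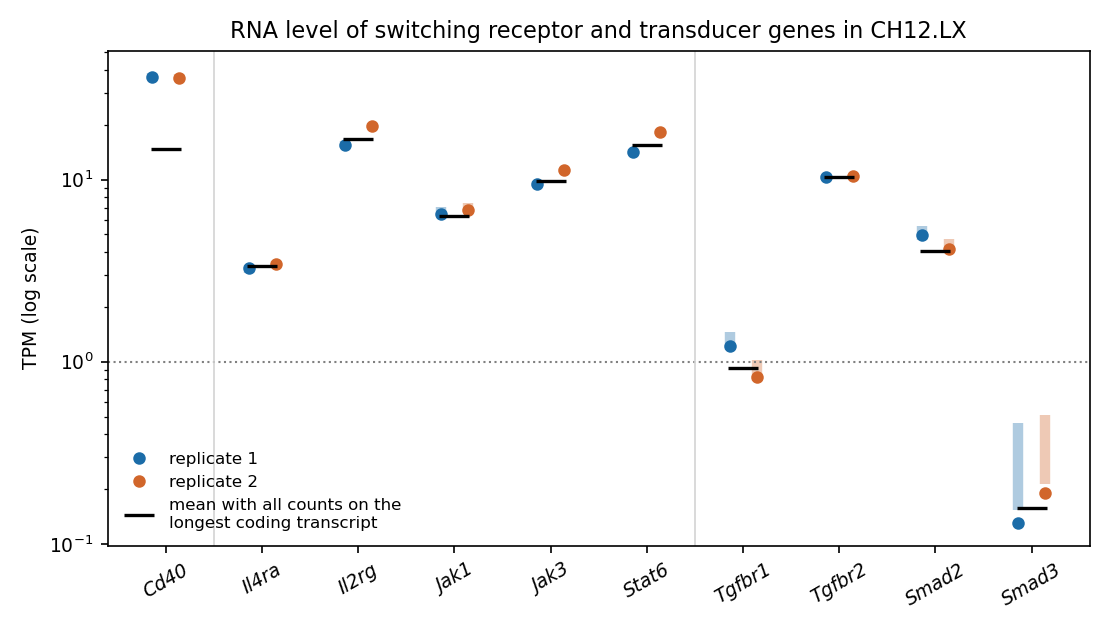
TPM of each gene (log axis) in replicates 1 and 2 (points), with the deposited credibility bounds of TPM as pale bars. The black dash is the mean with all counts of a gene placed on its longest coding transcript, the dotted line is 1 TPM, and the upright lines part the CD40, IL-4 and TGF-beta groups. Cd40 is highest as deposited, at 36.7 and 36.3 TPM, but its dash lies at 14.6 TPM, near Il2rg and Stat6.

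Cd40 (chromosome 2, 165055627 to 165072948, plus strand) was at 36.7 and 36.3 TPM in replicates 1 and 2, from 4652 and 4890 expected counts. The libraries were nearly level, with a mean of 36.5 ± 0.269 TPM (SD, n = 2). This placed Cd40 at rank 975 in replicate 1 and 894 in replicate 2 among 21474 protein-coding genes. The value depends on the transcripts to which the reads were assigned. With all counts placed on Cd40-201, the longest coding transcript at 2986 bases, the level was 14.9 and 14.4 TPM, and the mean of 14.6 ± 0.382 TPM was no longer above those of Il2rg and Stat6 on the same scale. That setting was added after the transcript shares were seen.

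Cd40 RNA was assigned mainly to forms that differ by coding exons and also in annotated length. Alternative splicing of mouse Cd40 is known to give membrane-bound and soluble receptors. Neighbouring coding exons of Cd40-201 are each missing from another coding transcript, and they are shown here in capitals, 5′ to 3′, with 15 bases of the neighbouring exons in lower case. The first lies at chr2:165066503-165066564 and is absent from Cd40-203, and the second lies at chr2:165069629-165069715 and is absent from Cd40-202 (mm10, plus strand, GENCODE M21 transcript sequences).
Cd40 exon of 62 bases: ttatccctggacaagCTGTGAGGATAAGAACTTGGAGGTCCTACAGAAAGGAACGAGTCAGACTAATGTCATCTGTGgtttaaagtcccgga
Cd40 exon of 87 bases: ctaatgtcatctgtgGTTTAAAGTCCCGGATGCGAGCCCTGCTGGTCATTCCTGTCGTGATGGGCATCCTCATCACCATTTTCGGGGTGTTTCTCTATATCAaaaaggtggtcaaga

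The exon of 87 bases spans coding bases 560 to 646 of Cd40-201 and its loss removes 29 codons in frame. The exon of 62 bases spans coding bases 498 to 559, its length is no multiple of 3, and its loss shifts the frame. The reading frames held 289 codons in Cd40-201, 260 in Cd40-202 and 203 in Cd40-203. Hydropathy was computed on the Kyte-Doolittle scale over windows of 19 codons past the first 40, a length close to that of a membrane-spanning stretch. The most hydrophobic window of Cd40-201 averaged 2.86 and covered codons 195 to 213, inside the exon of 87 bases. In Cd40-202 and Cd40-203 the highest window averaged 0.558 and lay at codons 125 to 143.

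Cd40-202 held 37.4% of Cd40 TPM in replicate 1 and 38.8% in replicate 2, and Cd40-203 held 37.2% and 36.3%. Cd40-201, the form with both exons, held 10.8% and 9.10%. Cd40-201 was thus the lowest of these 3 forms by TPM in both libraries. Cd40-207, annotated as a target of nonsense-mediated decay, held 11.6% and 12.4%. Its last but one exon runs on through the intron after the exon of 87 bases. In TPM the levels were 3.95 and 3.30 for Cd40-201, with deposited credibility bounds of 3.57 to 4.33 and 2.97 to 3.66. Those of Cd40-202 were 13.7 and 14.1, with bounds of 12.7 to 14.6 and 13.1 to 14.99. The bounds of Cd40-201 did not overlap those of Cd40-202 or Cd40-203 in either library. Cd40-203 was at 13.6 and 13.2 TPM, with bounds of 11.8 to 15.3 and 11.3 to 14.8, which overlapped those of Cd40-202, so the order of these forms by TPM was not resolved.

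Transcript length matters here, because Cd40-203 is annotated with only 668 bases and a given count weighs more in TPM on a short transcript. By expected counts Cd40-202 held 48.3% ± 2.05 of the gene, Cd40-201 held 24.8% ± 2.503 and Cd40-203 held 16.4% ± 0.0849 (SD, n = 2). Cd40-201 and Cd40-203 thus changed places in the order by counts. Among these 3 coding forms alone, Cd40-201 took 11.7% ± 1.29 of TPM and 27.7% ± 2.63 of expected counts. Short reads split the transcripts of a gene indirectly, so all transcript shares are estimates. The annotated lengths of Cd40-201, Cd40-202 and Cd40-203 were 2986, 1596 and 668 bases. They differ by far more than the exons of 62 and 87 bases. Whether the shares rest on reads at these exons or elsewhere in the transcripts was not tested.

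**Figure D2:**
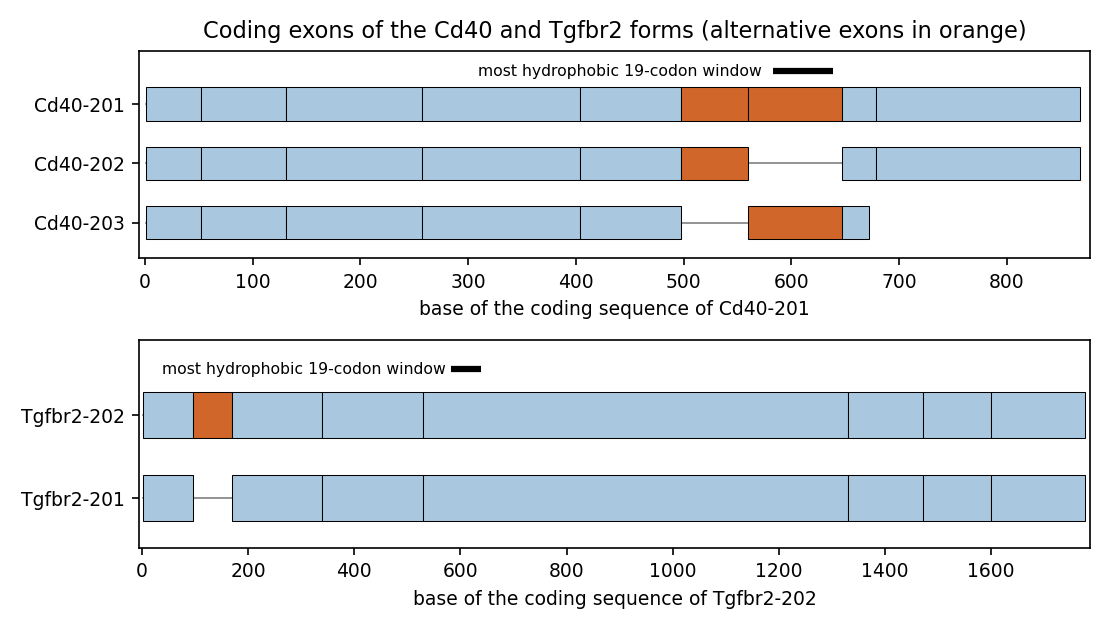
Coding exons, to scale, of the Cd40 forms on the coding sequence of Cd40-201 (top) and of the Tgfbr2 forms on that of Tgfbr2-202 (bottom); orange marks the alternative exons, the thin line a skipped exon and the black bar the most hydrophobic window of 19 codons. The window of Cd40-201 lies inside the exon that Cd40-202 lacks, at codons 195 to 213, and Cd40-203 ends early after its frame shift.

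Il4ra (chromosome 7, 125552120 to 125579474, plus strand), the chain that binds IL-4, was at 3.25 and 3.46 TPM in replicates 1 and 2. It was the lowest of the IL-4 pathway members in both libraries. Its single annotated M4 transcript, Il4ra-201, held all of its 1772 and 2056 expected counts. M21 places the antisense gene Gm44876 over 1342 of its bases, and that gene is not among the M4 genes. Il2rg (chromosome X, 101264378 to 101268255, minus strand), which is shared by the receptors for IL-2, IL-4, IL-7, IL-9, IL-15 and IL-21, was at 15.5 and 19.7 TPM. Il2rg was above Il4ra by 4.76-fold in replicate 1 and 5.70-fold in replicate 2, and the ranges of these genes did not overlap. Il2rg-201 held 85.8% and 89.8% of Il2rg TPM, and Il2rg-204, a retained intron transcript, held 9.96% and 6.31%. Gm20489, annotated as protein-coding on the same strand, shares 3878 bases with Il2rg and had 0 expected counts in both libraries. Whether reads of Il2rg could also be assigned to Gm20489 was not tested.

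Jak1 (chromosome 4, 101152367 to 101265282, minus strand), a kinase used by many cytokine receptors, was at 6.47 and 6.84 TPM in replicates 1 and 2. Jak3 (chromosome 8, 71676296 to 71690575, plus strand), the kinase bound to the common gamma chain, was at 9.46 and 11.2 TPM. Jak3 was higher than Jak1 in each library, and the ratio of Jak1 to Jak3 was 0.684 in replicate 1 and 0.609 in replicate 2. The kinases were thus closer to each other in level than the receptor chains they bind. Stat6 (chromosome 10, 127642986 to 127660957, plus strand), the transcription factor that IL-4 activates, was at 14.1 and 18.3 TPM. Its annotated end shares 40 bases with Nab2 on the other strand, and whether counting used strand is not given in the sources used here. Stat6-201 held 93.2% and 95.7% of Stat6 TPM, and Jak1-201 held 94.4% and 92.4% of Jak1 TPM.

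Jak3 RNA was split over transcripts with the same coding length of 3300 bases but different first and last exons. Jak3-202 held 60.9% in replicate 1 and 51.6% in replicate 2, and Jak3-201 held 25.7% and 31.6%. Jak3-204, a retained intron transcript, held 10.4% and 13.3%. Jak3 was also the only one of the 10 genes whose expected counts were not whole, at 3805.61 and 4951.07, within a tolerance of 0.005. Its annotated end overlaps Insl3, the gene of a peptide hormone of Leydig cells, by 1362 bases on the same strand, and the last exon of Jak3-201 is also that of Insl3. Insl3 was given 113 and 154 expected counts, or 2.21 and 2.79 TPM. Reads in that exon cannot be told apart, so Insl3 and the share of Jak3-201 are uncertain.

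Tgfbr2 (chromosome 9, 116084293 to 116175360, minus strand), the type II receptor, was at 10.3 and 10.4 TPM in replicates 1 and 2. Tgfbr1 (chromosome 4, 47353222 to 47414931, plus strand), the type I receptor, was at 1.22 and 0.82 TPM, from 670 and 518 expected counts. The ranges did not overlap, and Tgfbr2 was above Tgfbr1 by 8.46-fold in replicate 1 and 12.7-fold in replicate 2. The type II receptor kept nearly the same level in the libraries while the type I receptor was lower in replicate 2.

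Tgfbr2 transcripts differ by a coding exon near the start of the protein. The longer product is known as the type IIB receptor, whose extra residues lie in the part outside the cell and which can bind TGF-beta 2 without the type III receptor. The exon lies at chr9:116158271-116158345 (mm10, minus strand), spans coding bases 95 to 169 of Tgfbr2-202 and adds 25 codons in frame. The most hydrophobic window averaged 2.40 in both forms and lay past the exon, at codons 195 to 213 of Tgfbr2-202. The exon is shown in capitals, 5′ to 3′, with 15 bases of each neighbouring exon in lower case, because it is what tells the forms apart.
Tgfbr2 exon of 75 bases: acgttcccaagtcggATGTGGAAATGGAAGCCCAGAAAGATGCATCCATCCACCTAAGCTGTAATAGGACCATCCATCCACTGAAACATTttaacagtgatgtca

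Tgfbr2-202, the transcript with this exon, held 38.3% of Tgfbr2 TPM in replicate 1 and 39.7% in replicate 2. Tgfbr2-201, without it, held 61.7% and 60.3%. By expected counts Tgfbr2-202 held 39.4% ± 1.01 (SD, n = 2). In TPM, Tgfbr2-202 was at 3.95 and 4.15, with credibility bounds of 3.46 to 4.38 and 3.70 to 4.65, and Tgfbr2-201 at 6.37 and 6.29, with bounds of 5.86 to 6.83 and 5.74 to 6.74. The bounds of these forms did not overlap in either library. Their M4 lengths of 4785 and 4710 bases differ by the 75 bases of the exon alone, so shares of TPM and of counts have to be close. M21 has other lengths for both, 8092 and 3476 bases, and shares under those models were not computed. Tgfbr3, the type III receptor betaglycan, was at 0.07 and 0.09 TPM, named after its values were seen. Tgfb2, which encodes TGF-beta 2, had 4 expected counts in each library.

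Tgfbr1-201 held 81.2% of Tgfbr1 TPM in replicate 1 and 90.4% in replicate 2. Tgfbr1-202 differs from it by 12 coding bases at the start of an exon (chr4:47393247-47393258, mm10, plus strand), or 4 codons, shown in capitals between 15 bases of coding sequence on each side.
Tgfbr1 segment of 12 bases: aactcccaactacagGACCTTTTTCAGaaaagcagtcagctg

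Tgfbr1-202 held 11.6% in replicate 1 and 1.28% in replicate 2, or 42.3 and 3.42 expected counts. The credibility bounds of its TPM, 0.00651 to 0.241 and 1e-06 to 0.0879, overlapped, so this difference is not resolved at this depth.

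Smad2 (chromosome 18, 76241580 to 76310963, plus strand) was at 4.96 and 4.18 TPM in replicates 1 and 2. Smad3 (chromosome 9, 63646767 to 63757994, minus strand) was at 0.13 and 0.19 TPM, from 68 and 113 expected counts. Smad2 was thus above Smad3 by 38.2-fold in replicate 1 and 22.0-fold in replicate 2. The deposited TPM of Smad3 lay below its own credibility bounds, 0.1535 to 0.462 and 0.212 to 0.510, whose posterior means were 0.29 and 0.35 TPM. With posterior means Smad2 was above Smad3 by 15.02-fold on average. Smad3 was the lowest of the 10 genes by each of these estimates.

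Smad2-205 held 74.3% and 74.5% of Smad2 TPM in replicates 1 and 2. Smad2-201, which encodes a product of the same coding length of 1401 bases, held 7.44% and 13.9%. Smad2-203, which skips a coding exon of Smad2-205 and also ends differently, held 9.02% and 2.98%. A form of SMAD2 that lacks the skipped exon is known to bind DNA, which the full-length protein does not do by itself. Smad2-203 has 8 exons and a coding length of 1302 bases, and with its different end it is not shown to encode that form. Whether its product binds DNA was not tested. Smad2-202, with 10 exons against 11 in Smad2-205 and a coding length of 1311 bases, had 0 expected counts in both libraries. Whether Smad2-202 encodes the known form was not tested. The bounds of Smad2-203, 0.155 to 0.764 TPM and 0.0204 to 0.354 TPM, overlapped between the libraries. Smad3-201 held 95.4% and 100% of Smad3 TPM, although with posterior means it held 47.5% ± 8.05 on average (SD, n = 2), since few reads bear on the split.

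**Figure D3:**
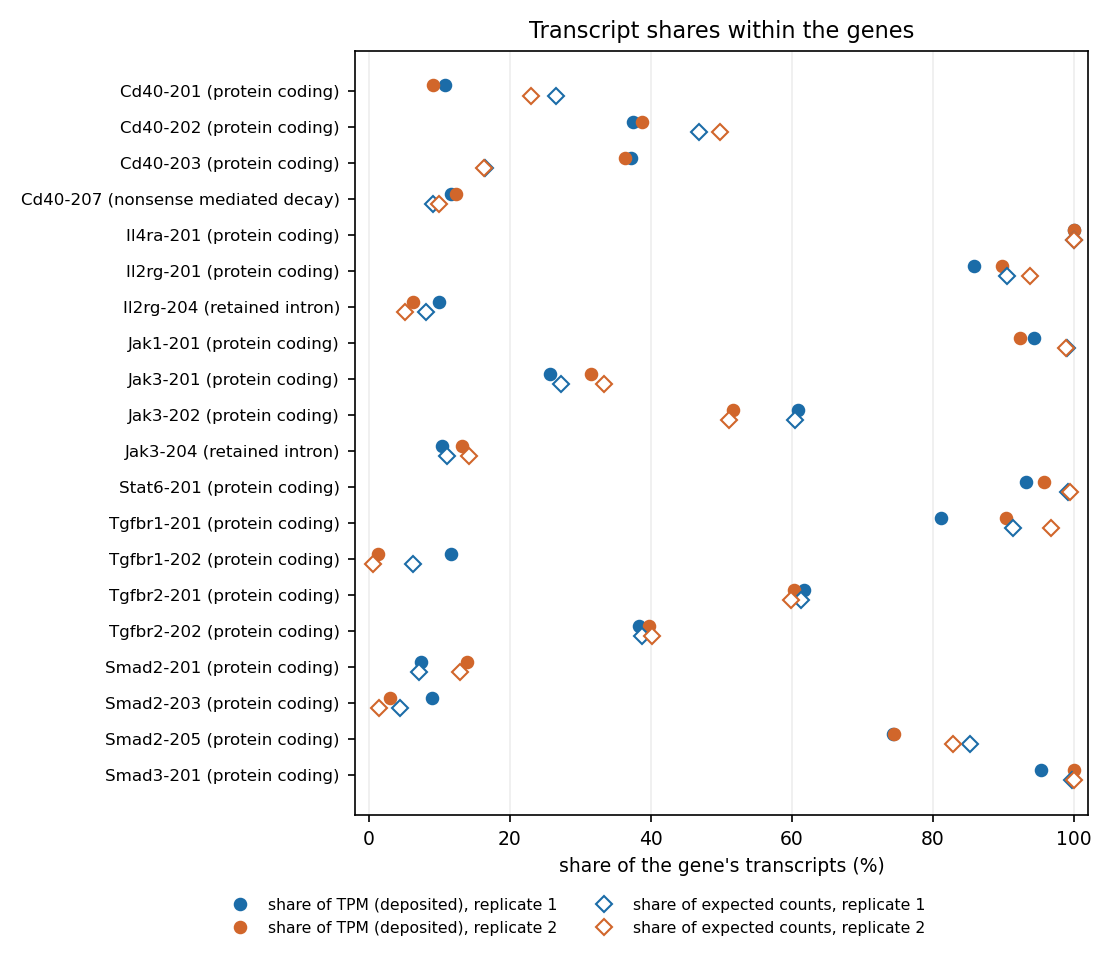
Share of each gene's RNA in its transcripts (horizontal axis, percent) in replicates 1 and 2, as the deposited share of TPM (filled circles) and as the share of expected counts (open diamonds). Rows are the transcripts with at least 10% of TPM in both libraries and the other forms named in the text that had counts. Cd40-203 drops and Cd40-201 climbs on the count scale, whereas the Tgfbr2 forms, nearly equal in M4 length, lie near 39% and 61% on each.

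Between the libraries, 0 of the 9 genes whose mean TPM was at least 1 differed by 1.5-fold or more, on the scale of TPM plus a pseudocount of 0.1, while 7.37% of the 9851 genes tested at that level did, and 5.94% of the protein-coding ones. With so few genes, a count of 0 is near that background. There is 1 library on each side, so these differences have no replicate check, and the intervals below cover counting error only. The log2 ratio of replicate 2 over replicate 1 was 0.37 for Stat6 and 0.35 for Il2rg. With counts scaled by TMM it was 0.43 for Stat6, with an exact 95% counting interval of 0.38 to 0.48, and 0.39 for Il2rg, with an interval of 0.32 to 0.47. Tgfbr1 lay nearest to the threshold at -0.52, or 0.697-fold, and at -0.47 by counts, with an interval of -0.64 to -0.30. Cd40 and Tgfbr2 differed least, at -0.01 and 0.02.

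Deposited credibility bounds of TPM were apart between the libraries for 4 of the 9 genes whose mean TPM was at least 1, and for 48.5% of the 9851 genes tested, so this share was near the background. The 4 genes were Stat6, Il2rg and Jak3, all higher in replicate 2, and Tgfbr1, which was lower there. Of all 10 genes, Smad3 included, 7 were higher in replicate 2 and 3 were lower. The same count over all genes was not made, so no lean of these genes is read from it. The median log2 ratio of the 9 genes was 0.08, against -0.04 over the 9851 genes tested. Smad3, outside this set, had a log2 ratio of 0.33 on the scale of TPM plus 0.1 and of 0.63 by TMM-scaled counts, with an interval of 0.19 to 1.09. The pseudocount is close to the level of Smad3, and understates the ratio of so low a gene.

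**Figure D4:**
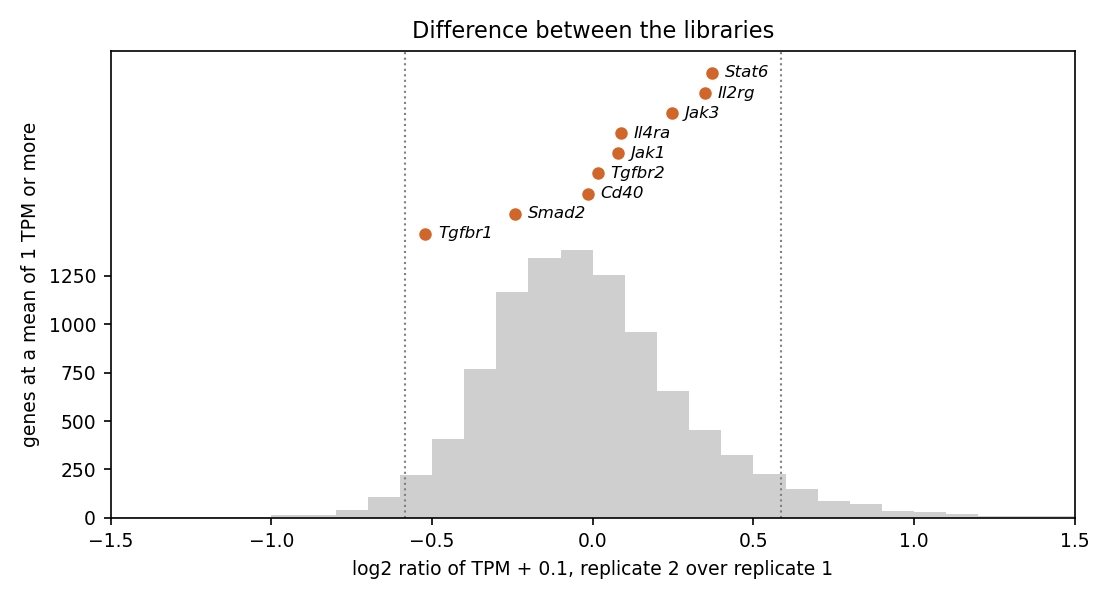
Histogram of the log2 ratio of replicate 2 over replicate 1 (TPM + 0.1) for the 9851 genes tested, with the 9 described genes at that level as points above it. Dotted lines mark 1.5-fold, and the axis ends at ratios of -1.5 and 1.5. The points run from -0.52 for Tgfbr1 to 0.37 for Stat6, all between the lines.

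The other genes of these pathways, 104 matched genes in 9 lists, were read for the same levels, and 58 of them reached 1 TPM in each library. Among all protein-coding genes 41.4% reached it, and the counts per list are to be read beside that share. Of 15 genes for CD40 ligand and its adaptors, 14 did, with a median of 8.71 TPM. Traf1, a TRAF adaptor, was the highest at 20.3 and 33.3 TPM, and Birc2 and Birc3, ubiquitin ligases of TRAF complexes, were at 14.3 and 23.3 TPM and at 12.3 and 16.1 TPM. Map3k14, the NF-kB inducing kinase, was at 2.37 and 2.36 TPM. The exception was Cd40lg, the ligand itself, at 0.02 and 0.05 TPM from 3 and 6 expected counts.

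Of 15 ligands and receptors around the IL-4 receptor, 6 reached 1 TPM in each library, a share near that of all protein-coding genes. Il21r, another partner of the common gamma chain, was the highest at 27.4 and 29.6 TPM, and Il2rb was at 10.9 and 9.50 TPM. Il4 itself was at 6.34 and 8.50 TPM, from 304 and 441 expected counts, so the RNA of the ligand was present in each library at a level above that of Il4ra. Il13 was lower, at 0.43 and 0.68 TPM. Il13ra1, the other chain that can pair with the IL-4 receptor alpha chain, was at 0.08 and 0.05 TPM, a name given after its value was seen. Il9 and Il21 had 0 counts in both libraries, which allows up to 0.0720 TPM in replicate 1 for Il9 and 0.0165 TPM for Il21 (3 counts).

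All 8 other JAK and STAT genes reached 1 TPM in each library. Tyk2, a kinase of the JAK family, was at 12.9 and 16.4 TPM and Stat3 at 12.6 and 12.3 TPM. Stat2 and Jak2 were the lowest, at 1.78 and 2.23 TPM and at 1.65 and 1.72 TPM. Of 12 regulators 8 reached it, led by Ptpn6, the phosphatase SHP-1, at 68.4 and 59.0 TPM and Ptpn1 at 21.7 and 18.2 TPM. Socs1, a feedback inhibitor of JAK kinases, was at 13.6 and 15.02 TPM. Irs2, an adaptor of the IL-4 receptor, was at 0.30 and 0.35 TPM, and Irs1 had 0 counts, which allows up to 0.00302 TPM in replicate 1.

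Of 8 genes listed as targets of STAT6 in B cells, 5 reached 1 TPM in each library, with Batf at 33.6 and 32.5 TPM and Xbp1 at 35.9 and 26.9 TPM. Fcer2a, the IgE receptor CD23 and an IL-4 response gene of B cells, was at 0.16 and 0.30 TPM, and Gfi1 at 0.29 and 0.40 TPM. Other signals also act on several of these genes, so their levels do not measure STAT6 activity.

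In the TGF-beta pathway, 5 of 15 matched ligand and release genes reached 1 TPM in each library, not far below the share of all protein-coding genes. Nrros, which holds latent TGF-beta at the cell surface, was at 13.4 and 11.99 TPM, Itgav was at 6.00 and 6.09 TPM and Tgfb1, the main ligand of lymphoid tissue, at 6.25 and 5.53 TPM. Tgfb2 was at 0.04 and 0.01 TPM and Tgfb3 at 0.03 and 0.08 TPM. Itgb6 and Itgb8, integrin chains that release active TGF-beta, had 0 counts, which allows up to 0.0152 and 0.00586 TPM in replicate 1. Only Bmpr1a, a type I receptor for bone morphogenetic proteins, reached 1 TPM in each library among 12 other receptors of the superfamily, at 8.13 and 6.65 TPM. The next were Acvrl1 at 0.71 and 1.34 TPM and Acvr1b at 0.80 and 1.14 TPM. Acvr1c had 1 and 2 expected counts, and Amhr2 had 0, which allows up to 0.0334 TPM in replicate 1.

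Smad4, the partner of SMAD2 and SMAD3, was at 6.54 and 8.37 TPM and Smad7, an inhibitory SMAD, at 1.76 and 2.85 TPM. These were the 2 of 6 other SMAD genes at 1 TPM in each library, also not far below the share of all protein-coding genes. Smad5 was at 0.94 and 1.04 TPM, while Smad1 and Smad6 had 0 counts, which allows up to 0.0100 and 0.0256 TPM in replicate 1. Of 15 SMAD partners and inhibitors, 10 reached 1 TPM in each library. Fkbp1a, which binds the resting type I receptor, was at 16.6 and 12.9 TPM, Tgif1, a corepressor, at 8.98 and 10.7 TPM and Runx3, a partner in IgA switching, at 3.38 and 4.80 TPM. Bambi, a decoy receptor, was at 0.12 and 0.17 TPM and Foxh1 at 0.02 and 0.06 TPM.

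Of the 59 pathway genes whose mean TPM was at least 1, 5 differed by 1.5-fold or more between the libraries, a share near the 7.37% of all genes tested. They were Stat4 at 1.88-fold, Acvrl1 at 1.78-fold, Traf1 at 1.64-fold, Birc2 at 1.62-fold and Smad7 at 1.59-fold, all higher in replicate 2 and named after their values were seen. The directions of all genes past 1.5-fold were not counted, so nothing is read from the shared direction.

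**Figure D5:**
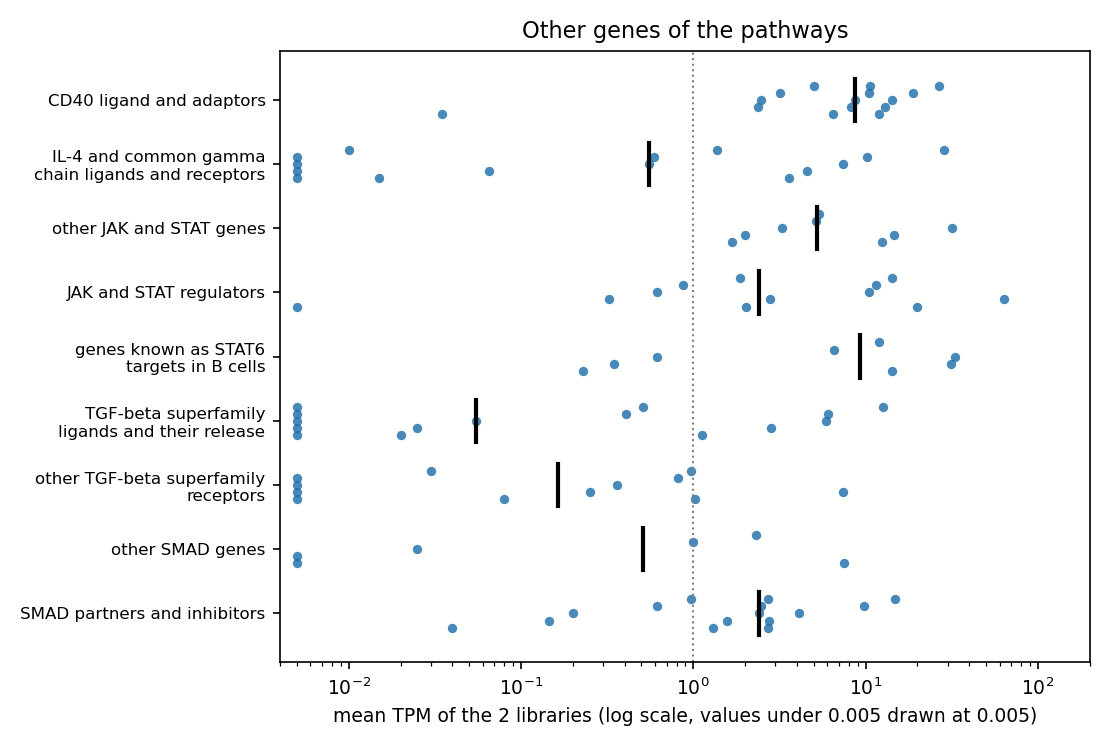
Mean TPM over the 2 libraries (log axis) of the other pathway genes, by list, with each list's median as a black bar. The dotted line is 1 TPM and values under 0.005 TPM are drawn at 0.005. CD40 adaptors lie almost wholly to the right of the line, whereas most TGF-beta superfamily ligands and receptors lie to its left.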

How the data were processed

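Total RNA of CH12.LX was measured in 2 libraries, quantified by the authors on assembly mm10 with annotation releases M2, M3 and M4, per the library manifests. The aligner and the quantifier were not given in the sources used here. Deposited by the authors were expected counts (estimated counts, not all whole), TPM with credibility bounds of unstated level as other columns, posterior mean TPM, FPKM and, in the M4 transcript tables, the percent of a gene's TPM in each transcript, per the file headers. The M4 tables were used. FPKM and the other releases served as alternatives.

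Rows without an Ensembl gene identifier were left out. Symbols, coordinates and transcript names were read from the mm10 release GENCODE M21 by identifier without version (42462 of 43346 genes, and 49 of 49 transcripts of the 10 genes, 45 of them with the same length in M4 and M21). Sequences came from the M21 transcripts, since no protein table was used. Members and lists were chosen with earlier results of these data known. Of the listed genes Lrrc33 had no match, and it is an older name of Nrros.

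A gene counted as detected at 1 TPM in each library. Values are mean ± SD over 2 libraries. Libraries were compared by the ratio of TPM + 0.1, called at 1.5-fold where the mean TPM was at least 1. Counting intervals (exact, Clopper-Pearson, 95%) used rounded expected counts, scaled by TMM (edgeR 4.0.16, R 4.3.3) over 15438 genes with at least 10 counts. On simulated Poisson counts for replicate 2 over replicate 1 (15438 genes), 97.0% of 200 genes made 2-fold different had their true ratio inside the interval. Such counts hold counting error alone, so this does not check the intervals against the spread between these libraries. Counts of 0 are given with a floor of 3 counts per library. The chi-square per degree of freedom between the libraries was 172, a spread beyond counting error that may be technical. The libraries were counted as 2 samples because the labels number them as biological replicates. Named pathway genes are the 3 highest and 2 lowest of each list, the ligands and Smad4, with ties at 0 TPM settled by list order, and 1 gene that this rule names is not reported here. Transcripts were named at 10% or more in both libraries, and others were named after their values were seen. Alternatives changed annotation, estimate, scale, threshold, pseudocount, filter and replicate. Other steps ran in Python 3.11.15 with pandas 2.3.3, scipy 1.17.1 and Biopython 1.88.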

Additional observations from a re-analysis of the deposited data

How the results depend on the processing

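The number of the 10 genes at 1 TPM in each library was 8 with M2, M3 and posterior means, 9 with TPM recomputed over protein-coding genes alone, and 8 to 9 when either replicate was left out. At a threshold of 10 TPM it was 4, and at 0.1 TPM it was 10. Among all protein-coding genes 51.6% reached 0.1 TPM in each library. The shares of all genes at 10 TPM and on the protein-coding scale were not computed, so the counts there have no background. The number past 1.5-fold between the libraries was 0 in all alternatives but FPKM, where it was 1, and that gene was Tgfbr1. With FPKM 7.89% of all genes tested were past 1.5-fold. The ratio of Smad2 to Smad3 was 30.1 on average and 15.02 with posterior mean TPM, and 22.0 to 38.2 when a replicate was left out. That of Tgfbr1 to Tgfbr2 was 0.0786 to 0.118, of Jak1 to Jak3 0.609 to 0.684 and of Il4ra to Il2rg 0.175 to 0.210 when a replicate was left out. Pathway genes at 1 TPM numbered 58, with 72 on the protein-coding scale, 77 at 0.1 TPM and 58 to 63 when a replicate was left out. The level of Cd40 was 36.5 TPM as deposited and 14.6 TPM with all counts on the longest coding transcript, a setting added after the data were seen, while the other 9 genes moved by less than 1.5-fold in it. Rescaling to protein-coding genes, which hold 24.4% and 24.3% of TPM, raised all 10 levels. No paired analysis was possible because there is a single group. Depth limits Smad3 and the minor transcripts most, and nothing here replicates a difference between the libraries.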
